A study of Mus musculus with 6 samples.

Results

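The transcripts of 8 genes that microglia use to make or handle reactive oxygen and nitrogen species were followed in cultured primary mouse microglia. They were taken by gene symbol, as a set chosen with earlier results of these data known, from the 41079 genes in the deposited tables: Cybb, Cyba, Ncf1, Ncf4 and Rac2, which encode parts of the phagocyte NADPH oxidase, and Nos2, Arg1 and Sod2. RNA-seq had been performed on 6 libraries, 3 from control and 3 from optimized cultures. Both groups came from brains of C57Bl/6N mice aged 1 to 3 days, whose microglia were grown in mixed glial flasks with 20% L-929 conditioned medium and collected by shaking. Control cells were then kept in serum-free DMEM/F12. Optimized cells received human TGFbeta, human IL34 and CX3CL1 at 100 ng/mL each in the same basal medium, and, according to the methods of the study, also cholesterol and insulin-transferrin-selenium on collagen IV. The effect of 1 cytokine or supplement therefore cannot be told apart from that of the others. A flask held the pooled brains of several neonates, the culture age of the sequenced cells was not given in the sources used here, and the study calls the 3 libraries of each group biological replicates. Optimized library 1 stood apart on the second principal component (13.5% of the variance), and it alone held Ltf, a neutrophil granule gene, at 1534 counts against at most 3 in each other library.

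The phagocyte NADPH oxidase, also called NOX2, moves electrons from NADPH across a membrane onto oxygen and so makes superoxide. Cybb is its catalytic subunit and Cyba the smaller membrane partner that holds Cybb stable. The cytosolic proteins Ncf1 and Ncf4 and the GTPase Rac2 or Rac1 join the membrane pair when the cell is activated. Nos2, the inducible nitric oxide synthase, and Arg1, arginase of the urea cycle, use the same substrate, arginine, and are widely used as opposite markers of inflammatory and alternative activation of macrophages. Sod2 is the manganese superoxide dismutase of mitochondria, which turns superoxide into hydrogen peroxide, and it is a common target of inflammatory signals. In microglia the oxidase is best known as a source of oxidants in neuroinflammation.

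Cybb, the catalytic subunit, was 3.18-fold lower under the optimized conditions, while its membrane partner Cyba had values that overlapped between the groups. The cytosolic subunits moved in opposite directions, with Ncf1 1.51-fold higher and Ncf4 lower, and Rac2 was lower. Nos2 and Arg1, both at very low counts, changed in opposite directions, with Nos2 lower and Arg1 higher. Sod2 was 2.98-fold lower. With edgeR's quasi-likelihood test and an adjusted p-value under 0.05, 2 of the 8 genes were called higher, 5 lower and 1 was not called. Over all 14618 genes tested, 29.8% were called, 14.7% higher and 15.2% lower. Control and optimized libraries did not overlap in TMM-scaled CPM, counts put on a common depth, for 7 of the 8 genes, against 43.9% of all genes tested. The calls and the count of 7 both include Nos2, called lower, and Arg1, called higher. Both genes passed the filter on low counts only through the group in which they were high and so had to differ.

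**Figure D1:**
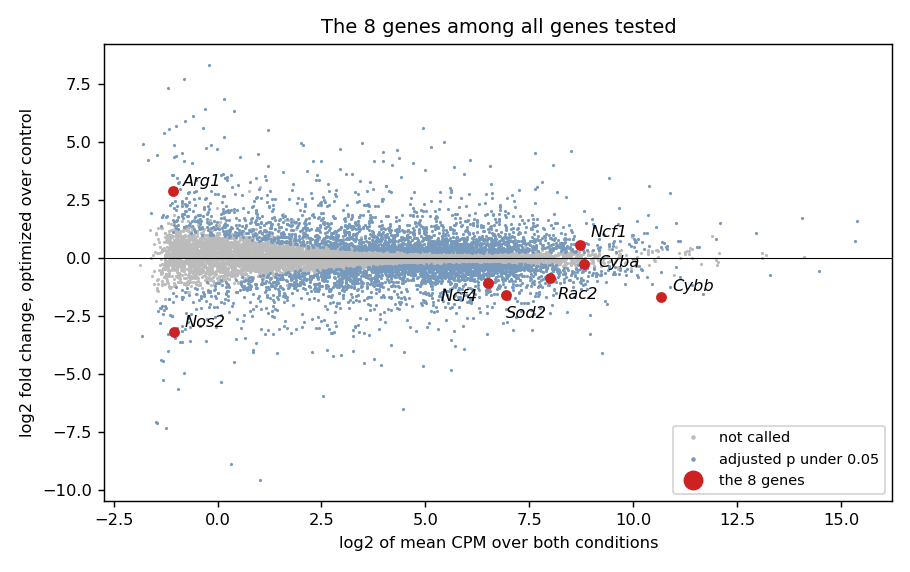
Log2 fold change (optimized over control, vertical) against log2 of the mean CPM over both conditions (horizontal) for the 14618 genes tested, with genes called at an adjusted p-value under 0.05 in blue, the others in grey and the 8 genes in red. Nos2 and Arg1 lie at the far left among the genes with the fewest counts, and Cybb lies at the far right of the 8 genes and below 0.

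The bases just upstream of Cybb, Ncf1 and Nos2 are shown because these genes stand for the directions seen, 1 oxidase subunit that fell, 1 that rose, and the nitric oxide synthase. Each is the 250 bases before the start of the gene's canonical transcript in GENCODE M39, on the gene's own strand of GRCm39, in lower case with motif matches in capitals. The motifs were searched on both strands, and were an NF-kB site, ISRE (GAAANNGAAA), GAS (TTCNNNGAA), STAT6 (TTCNNNNGAA), AP-1 (TGANTCA), PU.1 (GAGGAA), CEBP (TTGCNNAA), SMAD (GTCTAGAC) and TATAAA (the TATA box).
Cybb, chrX:9335571-9335820, minus strand: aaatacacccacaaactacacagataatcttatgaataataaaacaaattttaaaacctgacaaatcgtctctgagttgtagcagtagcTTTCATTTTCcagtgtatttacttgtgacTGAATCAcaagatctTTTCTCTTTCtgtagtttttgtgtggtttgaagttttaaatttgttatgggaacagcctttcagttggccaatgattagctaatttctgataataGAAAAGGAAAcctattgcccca
Ncf1, chr5:134258480-134258729, minus strand: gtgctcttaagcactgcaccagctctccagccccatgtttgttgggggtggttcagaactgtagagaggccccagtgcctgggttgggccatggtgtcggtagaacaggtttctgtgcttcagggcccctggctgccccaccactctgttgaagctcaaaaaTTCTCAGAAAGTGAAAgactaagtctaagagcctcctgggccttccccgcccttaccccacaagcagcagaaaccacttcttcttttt
Nos2, chr11:78811363-78811612, plus strand: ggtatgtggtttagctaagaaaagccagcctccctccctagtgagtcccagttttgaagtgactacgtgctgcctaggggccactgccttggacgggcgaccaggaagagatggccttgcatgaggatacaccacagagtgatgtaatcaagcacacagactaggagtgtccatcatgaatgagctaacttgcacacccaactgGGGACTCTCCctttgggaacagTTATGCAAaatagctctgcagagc

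The Cybb sequence held 3 ISRE matches and 1 AP-1 match. ISRE is the element bound by interferon-regulated factors, and 3.32% of the 21751 promoters searched in windows of the same length held it. Its matches in Cybb ended 152, 108 and 13 bases before the start. The Ncf1 sequence held 1 ISRE match that shared bases with 1 GAS match, a motif present in 7.7% of promoters. The Nos2 sequence held 1 NF-kB match, from 46 to 37 bases before the start, and 1 CEBP match, from 24 to 17 bases before it. NF-kB matches were in 7.62% of promoters and CEBP matches in 9.34%. Among the other 5 genes, Ncf4 held NF-kB, GAS and PU.1 matches, Rac2 PU.1, Arg1 AP-1, and Sod2 GAS and PU.1, while Cyba held none of the motifs searched. AP-1 was in 6.17% and PU.1 in 22.9% of all promoters. None of the 8 windows held a STAT6, SMAD or TATA box match, which 5.89%, 0.239% and 11.9% of promoters did. These matches are letters in a window, and binding was not measured.

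Cybb was the most abundant of the 8 genes in counts and had one of the larger falls. Cybb lies on chromosome X, positions 9301491 to 9354010 of GRCm39 on the minus strand, with 13 exons in its canonical transcript. Its reads numbered 56111, 60912 and 69128 in the control libraries 1, 2 and 3, and 18447, 15514 and 16879 in the optimized libraries 1, 2 and 3. After TMM scaling, which removes differences in depth and composition between libraries, these were 2453, 2484 and 2530.4 CPM in the control and 873, 661 and 816 CPM in the optimized libraries. Every optimized library was far below every control library, and the control libraries lay close together. The means were 2489 ± 38.9 and 783 ± 110 CPM (SD, n = 3 each). Cybb was thus 3.18-fold lower, a log2 fold change of -1.67 (SE, the standard error, 0.12, 95% confidence interval -1.94 to -1.39, adjusted p-value 5.4e-06 with edgeR's quasi-likelihood test). Of the 14618 genes tested, 302 had a lower log2 fold change than Cybb.

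Cyba gave no call. It encodes the membrane partner of Cybb and lies on chromosome 8, from 123150422 to 123159706 on the minus strand. Cyba had 444, 480 and 541 CPM in the control libraries and 303, 513 and 419 CPM in the optimized libraries. Optimized library 2 lay within the control range and the other 2 below it. The means were 488 ± 48.8 and 412 ± 105 CPM (SD, n = 3 each), and the log2 fold change was -0.25 (SE 0.17, adjusted p-value 0.33 with edgeR). The 95% confidence interval, from -0.63 to 0.14, leaves room for a moderate fall or a small rise. The call for Cyba rested on 1 library, because without optimized library 2 its log2 fold change was -0.45 with an adjusted p-value of 0.039.

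**Figure D2:**
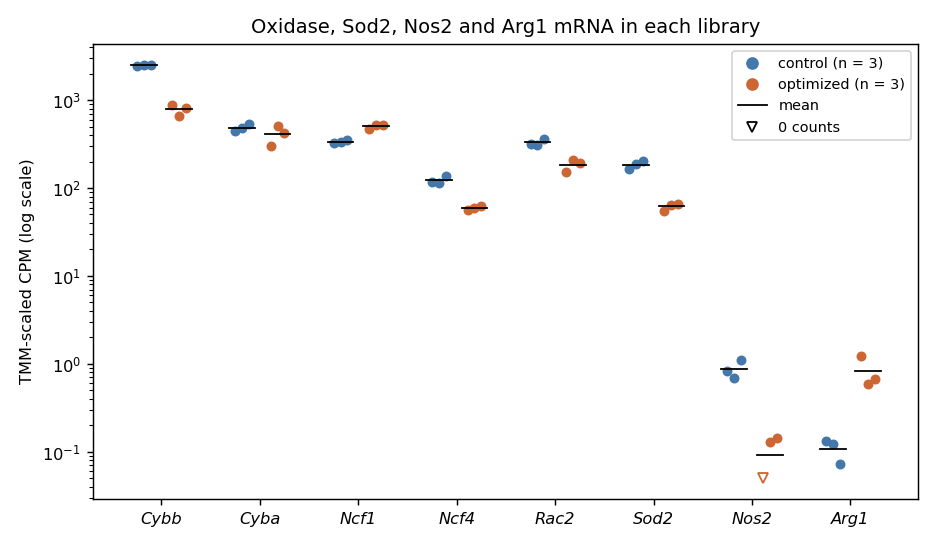
TMM-scaled CPM of each of the 8 genes (vertical, log scale) in the 3 control and 3 optimized libraries, with 1 point per library, a bar at the mean and an open triangle for a library with 0 counts. For each gene other than Cyba the points of the groups are separate, Ncf1 and Arg1 with the optimized libraries above and Cybb, Ncf4, Rac2, Nos2 and Sod2 with them below.

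Ncf1 was the only oxidase gene of the 8 that rose, and Ncf4 fell. Ncf1, the organizer subunit that carries the activating signal to the membrane pair when it is phosphorylated, lies on chromosome 5 from 134248907 to 134258479 on the minus strand. It had 322, 335 and 354 CPM in the control and 471, 526 and 524 CPM in the optimized libraries. The highest control library was well below the lowest optimized library. The means of 337 ± 15.9 and 507 ± 31.6 CPM (SD, n = 3 each) were 1.51-fold apart, a log2 fold change of 0.59 (SE 0.089, adjusted p-value 0.00067 with edgeR). Ncf4, a subunit that binds a membrane phosphoinositide and sustains the oxidase on phagosomes, lies on chromosome 15 from 78128982 to 78146784 on the plus strand. Ncf4 had 116, 114 and 138 CPM in the control and 55.9, 59.5 and 61.7 CPM in the optimized libraries. The optimized values were tight and lay well below every control value. The log2 fold change of Ncf4 was -1.05 (standard error 0.098, adjusted p-value 2.8e-05 with edgeR).

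Rac2, the GTPase of blood cells that switches the oxidase on, fell as well. It lies 296582 bases from Ncf4 on chromosome 15, from 78443367 to 78457429 on the minus strand. Rac2 had 316, 309 and 364 CPM in the control and 154, 207 and 192 CPM in the optimized libraries. The groups were separate, with optimized library 1 the lowest. The means were 330 ± 29.5 and 185 ± 27.5 CPM (SD, n = 3 each), and the log2 fold change was -0.84 (standard error 0.12, adjusted p-value 0.00052 with edgeR).

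Rac1 and Cybc1 act beside these subunits. Rac1, the widely expressed relative of Rac2, had a log2 fold change of -0.14 (95% confidence interval -0.34 to 0.06, adjusted p-value 0.29 with edgeR) and was not called, but it was called lower under scaling by library size alone and in the 3 limma fits on FPKM values. Cybc1, a chaperone needed to make the Cybb and Cyba pair, had one of 0.12 (interval -0.06 to 0.30, adjusted p-value 0.32), which was -0.012 under scaling by library size alone, and it was not called in any of 15 alternatives. These intervals exclude a change as large as that of Cybb. In a list of 13 other oxidase subunits and relatives, 6 had enough counts to be tested. Of these, 0 were called higher and 1 lower, Rap1a, 16.7% against 29.8% over all genes tested. The median log2 fold change was 0.12 against 0.0079 over all genes tested. That median was -0.016 under scaling by library size alone. Rap1a, a small GTPase found with the membrane pair, had 106, 128 and 112 CPM in the control and 82.4, 94.9 and 98.8 CPM in the optimized libraries (log2 fold change -0.33, adjusted p-value 0.040 with edgeR). Its groups lay close together, and without any 1 of the 3 control libraries, or without optimized library 3, its adjusted p-value was 0.051 to 0.17. The proton channel Hvcn1, which balances the charge that the oxidase moves, had a log2 fold change of 0.14 (adjusted p-value 0.29). Of the other catalytic subunits, Nox1 had 37 to 56 counts per library and Nox4 at most 5.

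To compare the subunits with each other, the deposited FPKM values, which are per length of gene, were used. In control libraries the order was Cyba with 652 ± 44.0 FPKM, Cybb with 527 ± 12.7, Rac1, Ncf1 with 115 ± 2.53, Rac2, Ncf4 and Cybc1 (SD, n = 3). Ncf1 and Rac2 overlapped in this order. In optimized libraries Cyba stayed first with 497 ± 108 FPKM, and Ncf1 with 157 ± 7.12 FPKM and Cybb with 151 ± 27.1 FPKM overlapped each other and Rac1. Among all 41079 genes ordered by mean FPKM, Cybb went from rank 93 to rank 330, Cyba from 72 to 86, and Ncf1 from 491 to 320. Per length, the 2 members of the membrane pair thus lay further apart in optimized than in control libraries.

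**Figure D3:**
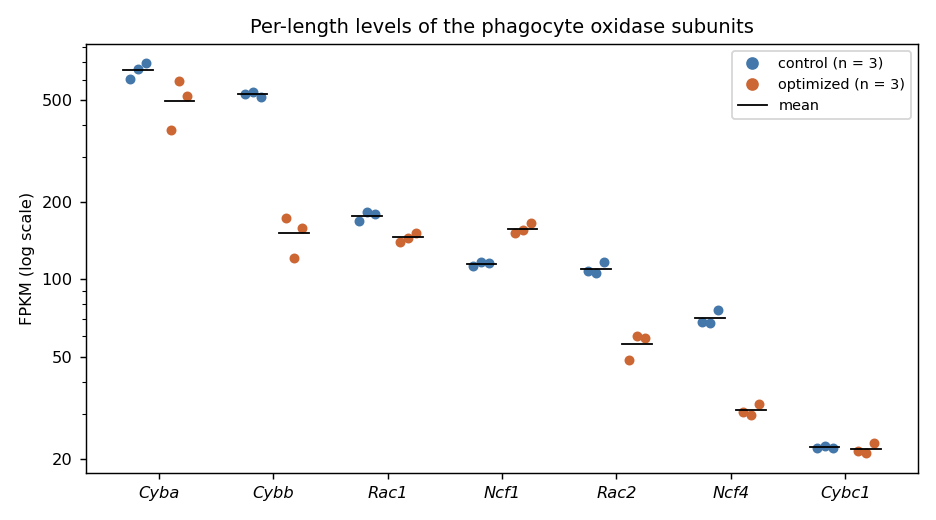
FPKM (log scale) of 7 phagocyte oxidase genes in control and optimized libraries, with 1 point per library and a bar at the mean, ordered by the control mean. Cybb falls from second place in control to the level of Ncf1 and Rac1 in the optimized libraries, while the Cybc1 points of the groups overlap.

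Ratios of 2 genes within 1 library do not depend on the depth or scaling of that library, and 7 were computed from the FPKM values. The Cybb to Cyba ratio was 0.873, 0.819 and 0.740 in control and 0.456, 0.204 and 0.308 in the optimized libraries, a log2 difference of -1.40. The Ncf1 to Ncf4 ratio was 1.65, 1.73 and 1.52 in control and 4.98, 5.23 and 5.02 in the optimized libraries, a log2 difference of 1.64. The second of these ratios was tight in both groups. Ncf1 to Cyba had a log2 difference of 0.86, Ncf4 to Cyba of -0.78 and Rac2 to Rac1 of -0.70. The groups did not overlap in any of the 7 ratios. Each had an exact two-sided permutation p-value of 0.1, which is the smallest that 3 against 3 libraries allows, and 0.1 after Benjamini-Hochberg adjustment over the 7, so none could pass 0.05.

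**Figure D4:**
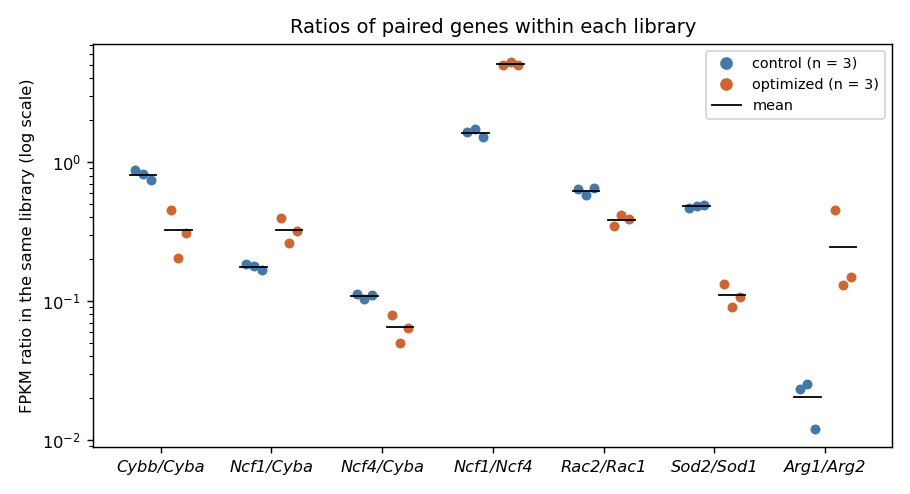
Ratio of the FPKM values of 2 genes in the same library (vertical, log scale) for the 7 gene pairs, with 1 point per library and a bar at the mean. The control and optimized points are separate for every pair, with the widest gaps for Arg1 to Arg2 and Sod2 to Sod1.

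Of 16 genes whose products assemble or activate the oxidase, all tested, 1 was called higher and 5 lower, 37.5% against 29.8% over all genes tested, with a median log2 fold change of -0.23. The tally was 0 higher and 8 lower under scaling by library size alone, 0 and 7 in the limma fits on FPKM values, and 2 and 7 with DESeq2 or with the replicate number as a block. Vav3, an exchange factor that loads Rac with GTP, had 44.8, 41.9 and 37.0 CPM in the control and 9.04, 8.98 and 11.2 CPM in the optimized libraries, 4.23-fold lower. Its groups were far apart. Syk, the kinase that relays signals from Fc receptors and Clec7a to the oxidase, was 1.76-fold lower (log2 fold change -0.82). The lipid kinase subunits Pik3cd and Pik3r5 had log2 fold changes of -0.77 and -0.60, and Prkcd, a protein kinase C that phosphorylates Ncf1, of -0.57. Their adjusted p-values with edgeR lay between 1.6e-06 and 0.00047, and the 5 calls were kept in all 15 alternative settings. Pik3cg, the catalytic partner of Pik3r5, was higher with a log2 fold change of 0.43 (adjusted p-value 0.0047), a call that was lost under library-size scaling alone and by limma on the FPKM values.

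Nos2 was close to the limit of detection in both groups and lower in the optimized libraries. It lies on chromosome 11 from 78811613 to 78851080 on the plus strand, with 27 exons in its canonical transcript, and shares 97 exon bases with Gm71838 on the other strand. Its reads numbered 19, 17 and 30 in control and 0, 3 and 3 in the optimized libraries. Every control library was above every optimized library, although the highest count was only 30 reads. A count of 0 allows up to 3 counts, so Nos2 is not shown to be absent from optimized library 1. The summed counts were 66 and 6, a ratio of control to optimized of 9.61 after scaling (exact 95% interval 4.19 to 27.1, which covers counting error only). The fitted log2 fold change was -3.18 (standard error 0.62, adjusted p-value 0.0032 with edgeR), and at such counts it depends on the prior count. Nos2 was at 0.83, 0.69 and 1.10 CPM in the control libraries, over the 0.446 CPM that the filter asked of 3 libraries, and below it in the 3 optimized libraries.

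In a list of 15 other genes of nitric oxide synthesis, 12 were tested, with 3 called higher and 4 lower, 58.3% against 29.8% over all genes tested, and a median log2 fold change of -0.26. The tally was 2 higher and 7 lower under scaling by library size alone and in the limma fits on FPKM values, and 2 higher and 1 lower without any 1 control library. Ass1, which regenerates arginine from citrulline together with Asl, had 33.5, 24.5 and 33.4 CPM in the control and 85.4, 77.0 and 118 CPM in the optimized libraries. Slc7a2, an arginine transporter induced in activated macrophages, had 6.12, 5.87 and 5.97 CPM in the control and 25.4, 16.4 and 19.0 CPM in the optimized libraries. In both genes all optimized libraries were above all control libraries, with log2 fold changes of 1.62 (Ass1, adjusted p-value 8.1e-05 with edgeR) and 1.76 (Slc7a2, adjusted p-value 3.1e-05). Slc7a1, the constitutive arginine transporter, was 1.84-fold lower (log2 fold change -0.88, adjusted p-value 0.00032). These 3 calls were kept in all 15 alternatives. Asl, the partner of Ass1, had a log2 fold change of -0.25 and was not called (adjusted p-value 0.13 with edgeR). It was called lower under library size alone and in the 3 limma fits. Gch1, which begins the synthesis of the Nos2 cofactor tetrahydrobiopterin, had a log2 fold change of -0.26 and was not called (adjusted p-value 0.11), but it was called lower in 5 of 15 alternatives, which were library size alone, the replicate block and the 3 limma fits. Of the other synthases, Nos1 had 0 counts in each control library and 6, 5 and 12 in the optimized libraries, Nos3 had at most 7 in any library, and neither was tested.

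The other 4 calls in the nitric oxide list were narrow. Ddah2, which breaks down an inhibitor of the synthases, was higher (log2 fold change 0.64, adjusted p-value 0.038 with edgeR). Spr of the cofactor pathway (-0.48, 0.038), Nosip (-0.32, 0.049) and Nostrin (-0.63, 0.031) were lower. Each lost its call when any 1 control library was left out. Ddah2 lost it also without optimized library 2 or 3, and Nosip and Nostrin without optimized library 1 or 3. Ddah2 was also not called under scaling by library size alone or by limma on the FPKM values. Its groups overlapped, since optimized library 1, at 7.055 CPM, lay just under control library 2 at 7.056 CPM. Without the libraries named, the adjusted p-values ranged from 0.089 to 0.13 for Ddah2, 0.078 to 0.12 for Spr, 0.0502 to 0.16 for Nosip and 0.053 to 0.14 for Nostrin.

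Arg1 rose but stayed at low counts. It lies on chromosome 10 from 24791118 to 24803817 on the minus strand, with 8 exons in its canonical transcript. Of its exon bases, 762 are shared with Gm36172 on the other strand, and the strand setting of the counting is not given in the sources used here. Its reads numbered 3, 3 and 2 in control and 26, 14 and 14 in the optimized libraries. The groups were separate, and optimized library 1 was the highest. The summed counts were 8 and 54, a ratio of optimized to control of 7.72 after scaling (exact 95% interval 3.65 to 18.8, counting error only). The fitted log2 fold change was 2.89 (standard error 0.53, adjusted p-value 0.0021 with edgeR) and 2.51 (adjusted p-value 0.0050) without optimized library 1. Arg1 was over the filter of 0.446 CPM in 3 optimized and 0 control libraries. It was thus tested only through the group in which it was high, and its p-values carry that limit. Even so, Arg1 reached only 0.835 ± 0.346 CPM (SD, n = 3) in the optimized libraries. Arg2, the mitochondrial arginase, had 5.28 ± 0.59 CPM in the control and 3.78 ± 1.02 CPM in the optimized libraries and was not called (log2 fold change -0.48, 95% confidence interval -0.97 to 0.01, adjusted p-value 0.14), although it was called lower in 2 of 15 alternatives, library size alone and limma on genes whose FPKM averaged at least 1. The Arg1 to Arg2 ratio of FPKM values was 0.023, 0.025 and 0.012 in control and 0.454, 0.130 and 0.149 in the optimized libraries, so that per length Arg2 stayed the more abundant arginase in every library.

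Genes that carry arginine on to ornithine, proline and polyamines were called in 6 of 14 tested, 5 higher and 1 lower, of a list of 15, 42.9% against 29.8% over all genes tested, with a median log2 fold change of 0.20. The tally was 3 higher and 2 lower under scaling by library size alone, and 2 or 3 higher and 1 lower without any 1 control library. Paox, a polyamine oxidase that releases hydrogen peroxide, had 19.9, 21.2 and 18.3 CPM in the control and 36.0, 35.6 and 37.2 CPM in the optimized libraries. Smox, the spermine oxidase, rose 1.55-fold, and Sms, which makes spermine, was 1.79-fold lower. The spermine-making enzyme was thus lower and the spermine-oxidizing enzyme higher, and these 3 calls were kept in all 15 alternatives. Odc1, the first enzyme of polyamine synthesis, had a log2 fold change of 0.27 and was not called (adjusted p-value 0.12 with edgeR), but it was called higher without optimized library 1 (adjusted p-value 0.0012). Pycr1, a proline-forming enzyme at under 2.2 CPM in every library, was higher (log2 fold change 1.22, adjusted p-value 0.014). So were Sat1, which acetylates polyamines (0.35, 0.044), and Aldh18a1 of proline synthesis (0.34, 0.039). Without control library 1 or 3 or optimized library 3, Pycr1 had adjusted p-values of 0.057 to 0.068. Sat1 and Aldh18a1 were not called under scaling by library size alone or by limma on the FPKM values. Without any 1 of the control libraries or without optimized library 2 or 3, Sat1 had values of 0.081 to 0.18 and Aldh18a1 of 0.063 to 0.16.

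Arg1 is often read together with other markers of alternative activation. In a list of 12, 5 were tested, with 1 called higher and 3 lower, 80% against 29.8% over all genes tested. The median log2 fold change was -1.11. Mrc1, the mannose receptor, had 332, 351 and 307 CPM in the control and 67.0, 56.7 and 64.4 CPM in the optimized libraries, 5.26-fold lower. Clec7a, a receptor for fungal glucans that activates the oxidase, was 2.15-fold lower, and Clec10a had 24, 35 and 16 counts in the control and 4, 0 and 1 in the optimized libraries. Clec10a passed the filter on low counts only through the control libraries, and the share of 80% includes it. Il4ra, a subunit of the interleukin-4 receptor, was higher with 75.0 ± 0.54 CPM in the control and 144 ± 6.92 CPM in the optimized libraries (SD, n = 3 each). These 4 calls were kept in every alternative in which the gene was tested. Chil3 and Ccl17 had 0 counts in every library, and Retnla had 1 count in 1 control library.

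Sod2 was among the strongest falls of the 8 genes. It lies on chromosome 17 from 13224095 to 13259591 on the plus strand. Sod2 had 164, 188 and 202 CPM in the control and 54.9, 64.4 and 66.6 CPM in the optimized libraries. The lowest control library was well above the highest optimized library. The means of 184 ± 19.4 and 62.0 ± 6.23 CPM (SD, n = 3 each) gave a 2.98-fold lower level, a log2 fold change of -1.57 (SE 0.11, 95% confidence interval -1.82 to -1.33, adjusted p-value 4.2e-06 with edgeR). Sod1, the cytosolic copper-zinc enzyme, had 58.1, 64.5 and 68.2 CPM in the control and 68.9, 118 and 103 CPM in the optimized libraries, and its lowest optimized value was barely above the highest control value. Its log2 fold change was 0.60 (adjusted p-value 0.024), and without control library 1 or 2 or optimized library 2 or 3 the adjusted p-value was 0.055 to 0.098. Sod1 was also not called in the 3 limma fits on FPKM values (adjusted p-value up to 0.19). The Sod2 to Sod1 ratio of FPKM values was 0.469, 0.485 and 0.493 in control and 0.133, 0.091 and 0.108 in the optimized libraries. Sod3, the secreted enzyme, was not called, with 0.80 ± 0.56 and 1.24 ± 0.69 CPM (SD, n = 3 each).

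Of 14 genes that remove superoxide and peroxide, all tested, 4 were called higher and 3 lower, 50% against 29.8% over all genes tested, with a median log2 fold change of -0.05. Prdx1, an abundant peroxiredoxin, had 2343, 2556 and 3013 CPM in the control and 952, 1219 and 1180.2 CPM in the optimized libraries. Cat, catalase, had 335, 325 and 385 CPM in the control and 153, 165 and 153 CPM in the optimized libraries. Gpx1, the selenium-dependent glutathione peroxidase, went the other way, with 136, 148 and 179 CPM in the control and 287, 445 and 406 CPM in the optimized libraries. The log2 fold changes were -1.24 for Prdx1, -1.15 for Cat and 1.30 for Gpx1 (adjusted p-values 8.8e-05, 1.1e-05 and 0.00022 with edgeR), and these 3 calls were kept in all 15 alternatives. Under scaling by library size alone, the list had 2 genes higher and 5 lower, and without control library 1 or 2 it had 1 higher and 2 lower. The calls of the peroxiredoxins Prdx4 (log2 fold change 0.57) and Prdx6 (0.32), which were higher, and of the thioredoxin Txn2 (-0.41), which was lower, were narrow. Prdx4 and Prdx6 were not called under scaling by library size alone or by limma on the FPKM values. Without any 1 of the control libraries or without optimized library 3, and for Prdx4 and Prdx6 also without optimized library 2, their adjusted p-values were 0.058 to 0.15.

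**Figure D5:**
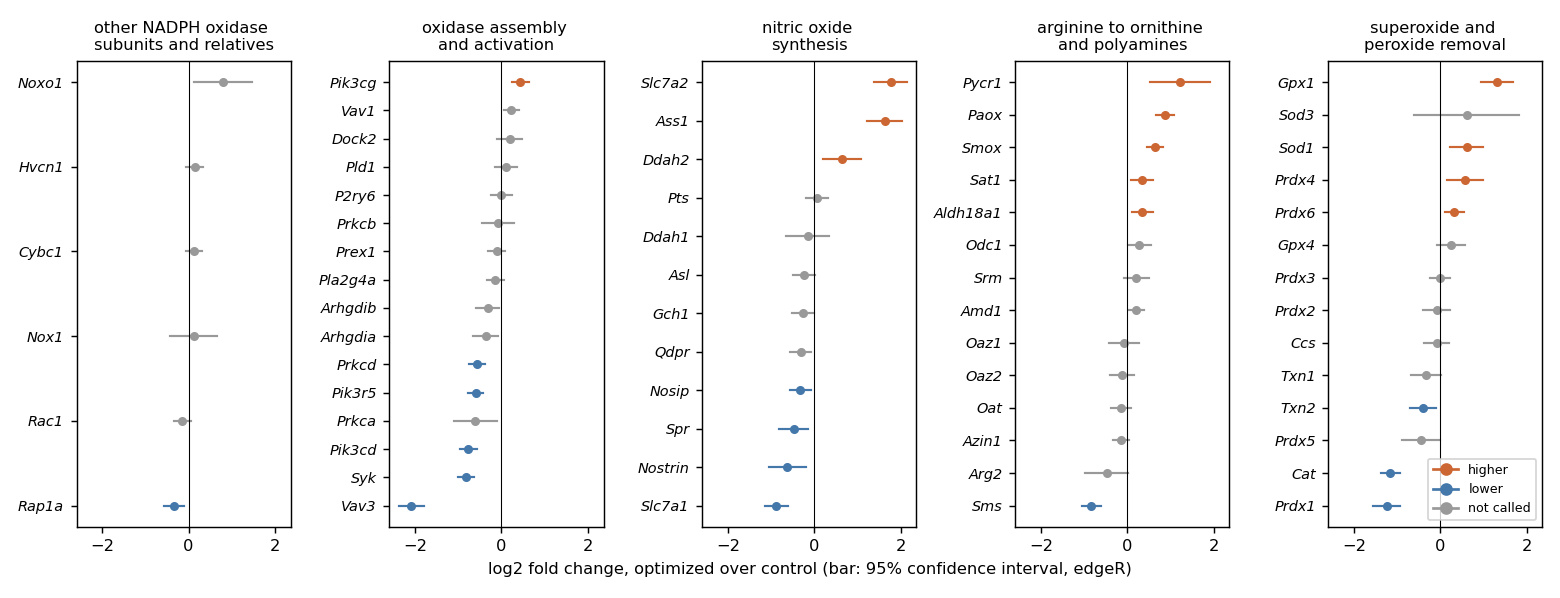
Log2 fold change (optimized over control, horizontal) with its 95% confidence interval from edgeR for every tested gene of 5 pathway lists, in orange where called higher, blue where called lower and grey where not called at an adjusted p-value under 0.05. Each list holds genes on both sides of 0, with Vav3 the lowest and Slc7a2 the highest.

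For a given gene, the genes closest in pattern over the 6 libraries were sought among 9837 with a mean of at least 5 CPM. Closeness was the Euclidean distance of centred log2(CPM + 0.1). For Cybb the closest were St3gal1, a sialyltransferase, at a distance of 0.10, the receptor Tlr1 at 0.19 and the lipase Lpl at 0.20. For Nos2 they were the chemokines Ccl2 at 0.57 and Ccl6 at 0.64 and the fatty acid binding protein Fabp4 at 0.74. For Arg1 they were Skil, a repressor of SMAD signaling, at 0.33, Dmxl2 at 0.43 and the TGFbeta receptor Tgfbr1 at 0.52. The distances for Nos2 and Arg1 are wider, and their own low counts add noise to them. The added 0.1 also shrinks the differences of these low genes. Their nearest genes had smaller fitted log2 fold changes, -2.63 to -2.22 against -3.18 for Nos2 and 1.89 to 2.06 against 2.89 for Arg1. Nos2 and Arg1 passed the filter on low counts only through their high group. These neighbours therefore reflect the offset and the size of the difference, and shared regulation was not tested.

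Counts summed to between 20628148 and 27261839 per library. Ctsd, a lysosomal protease, took 2.06 to 2.37% of counts in the control and 5.04 to 7.11% in the optimized libraries, and the scaling bears on the balance of calls, of which 49.1% were higher with TMM, 32.3% with library size alone and 28.4 to 33.1% with limma on FPKM values. With library size alone the median log2 fold change of all genes shifted to -0.12, and the 7 calls among the 8 genes remained. Neutrophils also use these oxidase genes. Of 12 neutrophil markers, S100a9, Ly6g, Ngp, Elane and Mpo were at 0 in every library, and 3 were tested. S100a8 (2, 4 and 6 against 30, 72 and 30 counts) and Mmp8 were called higher, 66.7% against 29.8% over all genes tested. S100a8 passed the filter on low counts only through the optimized libraries. The list summed to 201 to 225 CPM in the control and 203 to 309 CPM in the optimized libraries, most of it Csf3r. Without optimized library 1 the calls of Cybb, Ncf1, Ncf4, Rac2, Nos2, Arg1 and Sod2 were kept, those of Nos2 and Arg1 with their filter limit. Leaving out that library does not remove neutrophil transcripts, because S100a8 was highest in optimized library 2, at 72 counts. The part of neutrophils in the values of the 8 genes was not tested.

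Of 10 microglia markers, 9 were listed in the tables and all 9 were detected in every library. Of these, 6 were called higher and 2, Aif1 and Csf1r, lower, 88.9% against 29.8% over all genes tested. The call of Aif1 was lost without control library 2 or 3 or optimized library 3 (adjusted p-value up to 0.15), and that of Csf1r without control library 1 (0.052). They summed to 6383 to 6475 CPM in the control and 10847 to 12447 CPM in the optimized libraries. Monocyte markers summed to 437 to 539 and 2719 to 3806 CPM, nearly all Fn1, while Ly6c2 had at most 4 counts and Ccr2 10 to 33. Endothelial markers summed to 81.5 to 97.1 and 274 to 352 CPM, most of it Flt1, oligodendrocyte markers to 135 to 151 and 164 to 202 CPM, neuron markers to 3.07 to 4.72 and 5.30 to 6.34 CPM, fibroblast markers to 34.5 to 48.8 and 31.0 to 151 CPM, and astrocyte markers to 33.4 to 36.2 and 22.1 to 25.7 CPM. Their part in the values of the 8 genes was not tested. In such bulk samples, fewer cells that express a gene and less RNA of it per cell cannot be told apart.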

How the data were processed

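Total RNA of 3 control and 3 optimized microglia cultures had been sequenced. The authors mapped reads to mm39 with HISAT2, assigned them to genes with featureCounts in Galaxy and deposited raw counts. They also deposited FPKM values, which here equalled the count times 1 factor per gene and 1 factor per library. Tool versions, annotation and strand setting are not given in the sources used here. Without strand, reads of a gene and of an overlapping gene on the other strand cannot be told apart. Each of the 8 genes other than Ncf4 shares exon bases with such a gene in GENCODE M39: 762 bases of Arg1 with Gm36172, 97 of Nos2 with Gm71838, 86 of Rac2 with Gm63166 and 803 of Sod2 with Gm64481, none of which is listed in the tables, and 304 bases of Cybb with Xk, 423 of Cyba with Il17c and 574 of Ncf1 with Gtf2ird2, which had mean counts of 36, 23.5 and 264.

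Groups and replicate numbers came from the labels, and the tables held no further sample columns. The counts were tested with edgeR 4.0.16 (R 4.3.3): filterByExpr (0.446 CPM in at least 3 libraries), TMM factors, and the quasi-likelihood test on group alone, with Benjamini-Hochberg adjustment over 14618 genes and a threshold of 0.05. Standard errors are the fold change divided by the square root of F. The common dispersion was 0.016, a coefficient of variation of 0.128. Ratios were compared with an exact two-sided permutation test. P-values measure the spread between these libraries. Replicates of 1 group differed by more than counting noise, so none was counted as a copy of another. Alternatives were DESeq2 1.42.0, relative log expression factors, scaling by library size alone, other filters, a block for the replicate number, leaving out each library, and limma 3.58.1 on log2(FPKM + 1) and log2(FPKM + 0.1), whose fold changes understate those of low genes. Steps were tested on simulated data in which a small share of genes changed and composition did not shift, so the choice of scaling was not covered. The 8 genes, the gene lists and the tests were chosen with earlier results of these data known. Named genes are the 8, the genes called in, or direct partners within, the oxidase, nitric oxide, arginine and superoxide lists, Ctsd, and the 3 nearest patterns of Cybb, Nos2 and Arg1. Genes named from the alternative activation and cell type lists, and Hvcn1, Nox1, Nox4, Nos1 and Nos3, were chosen after their values were seen. An item of the oxidase list is not reported here.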

Additional observations from a re-analysis of the deposited data

How the results depend on the processing

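The 7 calls among the 8 genes kept their direction and their side of the threshold in every alternative in which the gene was tested (15, or 13 for Nos2 and Arg1). Nos2 and Arg1 passed the filter on low counts only through the group in which they were high, and their kept calls carry that limit. Leaving out each library in turn, the log2 fold change ranged from -1.75 to -1.57 for Cybb, 0.55 to 0.64 for Ncf1, -1.11 to -0.97 for Ncf4, -0.94 to -0.72 for Rac2, -1.66 to -1.49 for Sod2, -3.62 to -2.64 for Nos2 and 2.51 to 3.08 for Arg1. With at least 10 counts in every library, and with limma on genes whose FPKM averaged at least 1, Nos2 and Arg1 were not tested, so 1 gene was called higher and 4 lower. With limma on log2(FPKM + 1) their log2 fold changes shrank to -0.24 and 0.49, which the pseudocount brings about. Cyba was called lower without optimized replicate 2 (-0.45, adjusted p-value 0.039) and in no other alternative (0.68 without optimized replicate 1, 0.058 with library size alone).

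Over all genes, 2142 were called higher in the reported fit, against 1307 with limma and a pseudocount of 1 on FPKM, 1312 with a pseudocount of 0.1, and 1176 for genes whose FPKM averaged at least 1. The cause was not tested. The counts called lower stayed within 1.5 times. Leaving out 1 library gave 1603 to 2591 higher and 1646 to 2643 lower. Same-numbered libraries deviated together with correlations of 0.40, -0.03 and 0.24. With so few libraries these values cannot settle whether the numbers pair the samples, and the reported fit used no pairing. With the replicate number as a block, 2401 genes were called higher and 2523 lower, with 2 and 5 among the 8 genes. All 7 within-library ratios kept their direction under each alternative. Nos2 and Arg1, with at most 30 counts in any library, are limited by depth.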
